A study of Mus musculus with 8 samples.

Results

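Sox5 is a gene on mouse chromosome 6 that encodes a transcription factor of the SoxD group. It was studied here through the cryptic transcription start sites that lie inside it, that is, capped 5′ ends of nascent RNA away from annotated starts. Peaks were chosen by position alone within the deposited lists. The gene itself was chosen with earlier results of these data known, so its ranks are a description. Any interval whose centre lay in the GENCODE M21 body of Sox5 was taken, on either strand. Of the 1627 intervals of the 4 deposited lists, 8 met this rule. They were 4 of the 976 peaks of the larger old list and 4 of the 216 peaks of a stricter old list, at the same 4 positions. The larger young list (425 peaks) and the stricter young list (10 peaks) held 0 peaks in Sox5. A peak entered a larger list when its fold between the ages was 10 or more, so the age direction of the Sox5 peaks follows from how the lists were made and is a description.

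The libraries came from frozen liver of C57/BL6J mice, all fed standard chow. The old group had 4 samples, aged 22 to 25 months, and the young group had 4, aged 2 to 4 months. Each group was made up of 2 females and 2 males, and no treatment is named for either. Young mice came from a commercial supplier and old mice from a national ageing colony, so age and source cannot be told apart. All samples were assayed by PRO-cap, in which polymerases are run on and the capped ends of the nascent RNA are sequenced. Each list holds 1 pooled value per peak, and the names of the larger lists carry the marks OF and YF that otherwise belong to female samples. The labels and names leave unsettled whether males were pooled into them, and no spread between animals could be computed. The lists hold no expression values, so the liver identity of the samples could not be checked against marker genes. For the same reason, more or fewer cells of a type cannot be told apart from more or less RNA per cell.

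SOX5 binds DNA through a high mobility group box and carries no transactivation domain of its own. With its close relative SOX6 it assists SOX9 in the formation of cartilage, and it also acts in the developing nervous system. The gene is known for several start sites, among them the one of a short isoform first described in testis. Many long developmental genes of this kind also carry antisense non-coding genes, whose names end in os, for opposite strand.

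The 4 peaks lay together in the upstream part of the gene, inside the first intron of its longest annotated transcripts. Each was an interval of 150 bp on chromosome 6 of mm10. Numbered along the chromosome, peak 1 ran from 144688121 to 144688270 and peak 2 from 144689075 to 144689224. Peak 3 ran from 144689335 to 144689484 and peak 4 from 144692141 to 144692290. Together they spanned 4170 bp, which is 0.437% of the 953553 bp of Sox5, and the rest of the gene held no peak of any of the 4 lists. Peaks 2 and 3 were a close pair, with 110 bp between them and 260 bp between their centres. Peak 1 lay 804 bp from peak 2, and peak 4 lay 2656 bp from peak 3. Joining intervals within 500 bp left 3 separate loci.

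No peak touched an annotated exon. The annotated exonic sequence inside the span is the second exon of the antisense gene Sox5os3, shown because it separates peaks 1 to 3 from peak 4. It is shared by both annotated transcripts of that gene and lies on the plus strand at chr6:144689939-144690044 (GRCm38, 106 bases), 454 bp from peak 3 and 2096 bp from peak 4. The sequence is from the GENCODE transcripts, all in lower case, since no part of it is singled out.
Sox5os3 exon 2: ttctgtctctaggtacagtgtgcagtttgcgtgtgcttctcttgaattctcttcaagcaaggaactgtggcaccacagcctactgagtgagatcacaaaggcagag

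Among the annotated transcripts of Sox5 (ENSMUSG00000041540.16, minus strand, 143828425 to 144781977), 2 of 14 spanned the peaks. These were Sox5-209, annotated as a retained-intron transcript, and Sox5-212, a processed transcript, both without coding sequence. They start at 144781977 and 144781919, the far upstream end of the gene. In both, all 4 peaks lay in the first intron of 156127 bp. The centre of peak 4 was 89598 bp from the first exon and that of peak 1 was 93618 bp from it. On the other side, the second exon was 62510 to 66530 bp away.

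None of the 7 coding transcripts of Sox5 spanned a peak. The coding transcript that begins furthest upstream, Sox5-214, starts at 144209568, and the peaks lay 478628 to 482648 bp upstream of that start. The part of the gene between its upstream end and this start makes up 60.0% of its length, and it is annotated only through transcripts without coding sequence. All annotated coding sequence of Sox5 thus lay downstream of the peaks in the direction of Sox5. There, Sox5-209 and Sox5-212 share exons with coding transcripts, such as the one from 144116444 to 144116654 in Sox5-214. A protein-coding host none of whose coding transcripts reached the peak was rare in the larger old list. It applied to 6 of the 915 peaks in protein-coding genes (0.656%), of which the Sox5 peaks were 4. As these 4 lie in the same intron of Sox5, they count as a single case. The absence of a spanning coding transcript holds for GENCODE M21. In RefSeq, on the same assembly, the Sox5 gene runs to 144782287 and holds the 4 peaks too, and the coding extent of its separate transcripts was not used here.

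**Figure D1:**
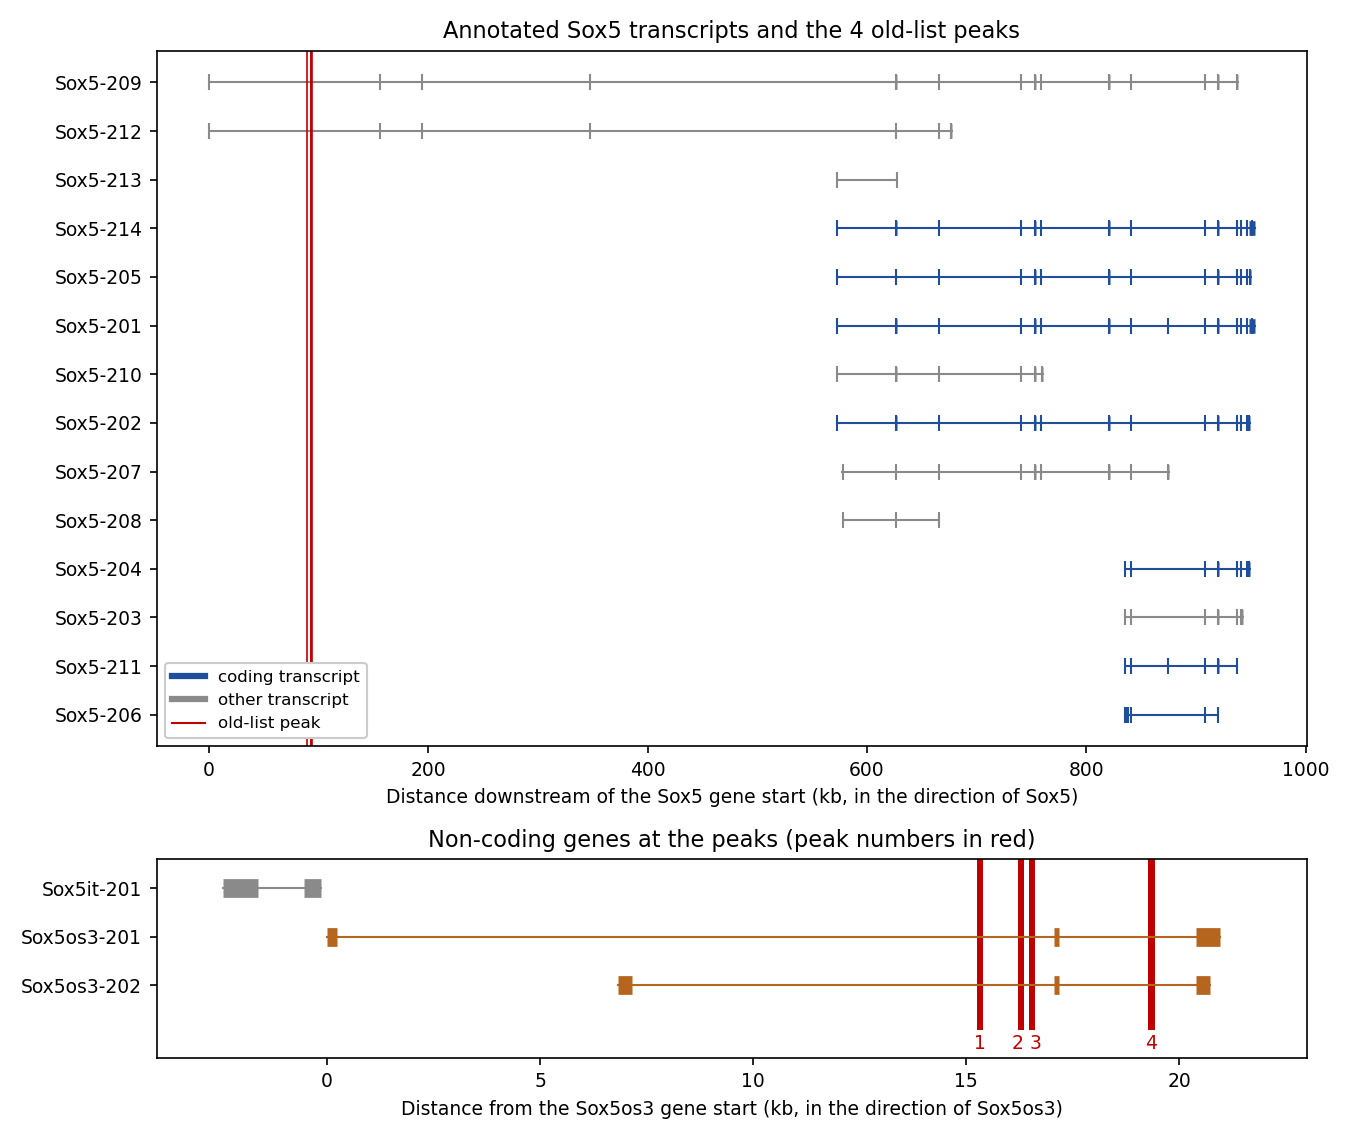
Upper panel: the 14 annotated transcripts of Sox5 against distance downstream of the gene start (kb), with ticks at exons (not to scale in width), coding transcripts in blue and others in grey, and the 4 old-list peaks as red lines. The peaks cross only Sox5-209 and Sox5-212. Lower panel: the non-coding genes Sox5it and Sox5os3 at the peaks against distance from the Sox5os3 start (kb), with exons as boxes and the peaks as red bands to scale. Peaks 1 to 3 lie before the second exon of Sox5os3 and peak 4 after it.

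On the opposite strand, a much shorter gene held the peaks. Of the 7 other genes annotated within Sox5, 5 are antisense genes (Sox5os1 to Sox5os5), 1 is the sense intronic gene Sox5it and 1 is Gm44068, a transcript still to be experimentally checked. Sox5os3 (ENSMUSG00000085785.7, plus strand, 144672868 to 144693834, 20967 bp) was the one that held peaks, and it held all 4. Peaks 1, 2 and 3 lay in its first intron, which is 16846 bp long in Sox5os3-201 and 9903 bp in Sox5os3-202. Peak 4 lay in the second intron of 3215 bp, 969 bp before the last exon. Sox5it and Sox5os3 start 148 bp apart and run away from each other. Neither start could carry a listed peak, because the lists hold peaks away from annotated starts. In the larger old list the smallest distance to one was 3577 bp. The lists therefore do not show whether these 2 starts were used at either age. RefSeq also places all 4 peaks inside Sox5os3.

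The antisense gene also held the nearest annotated start. From the start of Sox5os3-202 at 144679702, the centres of peaks 1 to 4 were 8494, 9448, 9708 and 12514 bp away. The centres lay 15328 to 19348 bp from the start of Sox5os3-201. The median distance to the nearest start over the 976 peaks of the larger old list was 13119 bp, with quartiles of 6793 and 23613 bp, so the Sox5 peaks fell within its middle range. From the nearest Sox5 start, that of Sox5-212, the peaks were 89703 to 93723 bp away.

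Few peaks of the list lay in antisense genes. Of the 976 larger old-list peaks, 22 (2.25%) lay in a gene of type antisense, and 18 of these lay outside Sox5. Of the 915 in protein-coding genes, 41 (4.48%) also lay in some gene on the other strand of their host. Since the 4 peaks share 1 antisense gene, they count as a single case. All 1627 intervals are marked plus for strand, and the mark was treated as uninformative. Whether the capped RNA at these peaks ran with Sox5 or with Sox5os3 therefore cannot be told from the lists.

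Relative position, from 0 at the start of a gene to 1 at its end, gave opposite pictures for the host and its antisense gene. In Sox5 the peaks lay at 0.0983, 0.0973, 0.0971 and 0.0941, in order from peak 1 to peak 4. Only 7 of 915 peaks with a protein-coding host (0.765%) lay as far upstream as peak 1 or further, including the 4 of Sox5. The others lay in C130026I21Rik and Asph, and a further Asph peak lay just past peak 1, at 0.0984. Peaks of the same gene lie close together here, so the number of separate cases is smaller. The median of the list was 0.758, and 865 peaks lay beyond the middle, which is a property of the lists and of how hosts were chosen. Where several protein-coding genes held a peak, one in which it lay beyond the middle was taken first, then the longest. How many positions this choice moved was not counted. In Sox5os3 the 4 Sox5 peaks lay at 0.731, 0.777, 0.789 and 0.923, beyond the middle. Of the 50 old-list peaks at or before the middle of their host gene (5.46%), 40 (80.0%) lay beyond the middle of some transcript of that host. Another 5 (10.0%), the Sox5 peaks and 1 in Litaf, did so only in a transcript of another gene. In Sox5-212, the shorter of the spanning Sox5 transcripts, the peaks lay at 0.132 to 0.138.

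**Figure D2:**
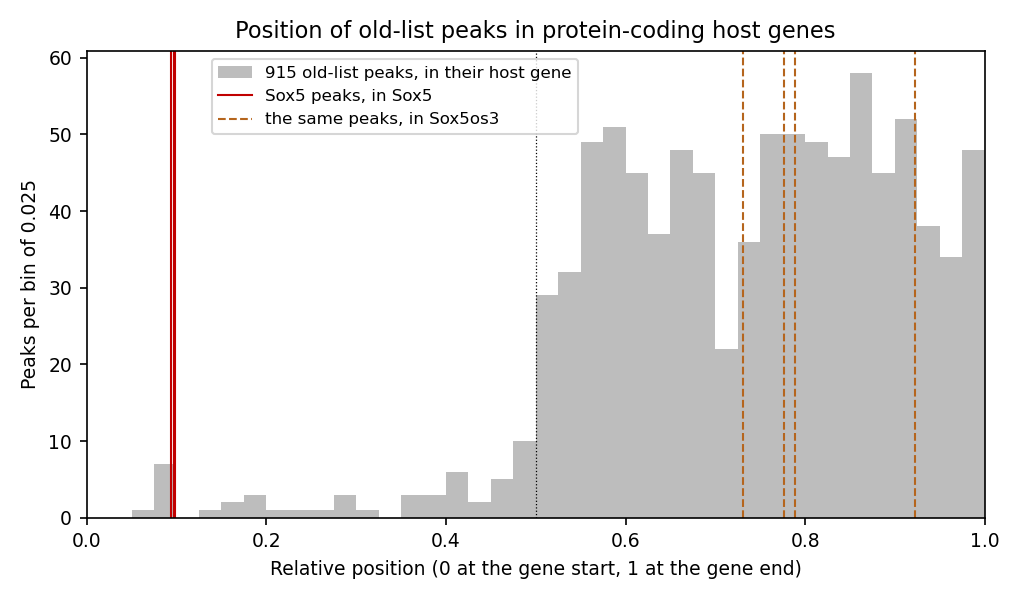
Histogram of the relative position of the 915 larger old-list peaks in protein-coding genes, in bins of 0.025, with the gene start at 0, the gene end at 1 and the middle as a dotted line. Where several such genes held a peak, one in which it lay beyond the middle was taken first. Red lines mark the 4 Sox5 peaks by their position in Sox5, all near 0.1, and dashed brown lines the same peaks by their position in Sox5os3, from 0.731 to 0.923.

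Reads differed between the 4 peaks by several-fold on the old side and were few or 0 on the young side. The deposited folds were solved for the whole read counts behind them, and intervals on reads and ratios are 95% intervals for counting error only. Peak 3 had 1448 reads on the old side (1374 to 1525) and 0 on the young side. It was at least 507-fold higher in old liver, where 0 reads were set to a floor of 3. Peak 4 had 368 reads (331 to 408) against 0, at least 129-fold higher. These 2 bounds rest on the floor of 3 and are not 95% limits, since the interval of 0 reads reached 3.69. Peaks 3 and 4 were thus the ones with no read from young liver, and at this depth the absence of reads sets an upper limit only.

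Peak 2 had 452 reads on the old side (411 to 496) and 13 on the young side (6.92 to 22.2), a ratio of 36.5 (21.1 to 69.1). Peak 1 had the fewest reads, 245 (215 to 278) against 10 (4.80 to 18.4), a ratio of 25.7 (13.7 to 54.3). The intervals of peaks 1 and 2 overlap. The lowest folds in the larger old list were 10.01, 10.04 and 10.05, and standing above 10 was fixed for every peak by how the list was made. A lower bound was taken from the 95% interval, or from the floor of 3 where young reads were 0. This mixed bound was at least 10 for all 4 Sox5 peaks, as for 72.2% of the list. A young count of 0 was found for 2 of the 4 Sox5 peaks, against 36.0% of the list. A group of 4 peaks is too small to set this share apart.

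The close pair differed in its makeup. Peak 3 had more reads than peak 2 on the old side but none on the young side, although only 110 bp separate them. At the proportion seen in peak 2, the 1448 old reads of peak 3 would go with 41.6 young reads. The read counts of neighbouring intervals come from the same libraries over a window and strand that no label or header names. Another peak centre within 260 bp was found for 191 of the 976 old-list peaks (19.6%), so such pairs are common in the list.

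**Figure D3:**
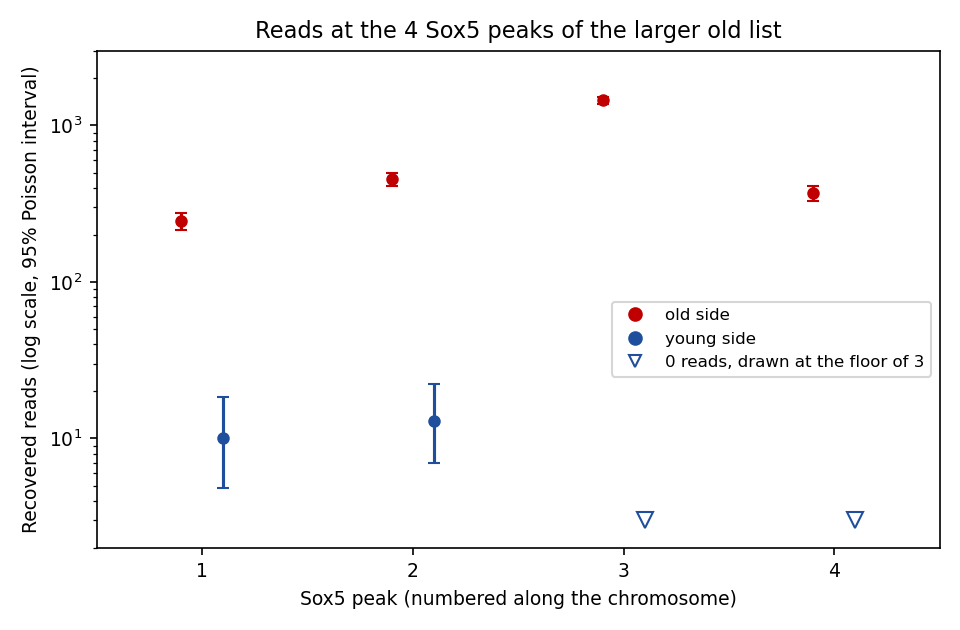
Recovered reads at the 4 Sox5 peaks of the larger old list on a log scale, old side in red and young side in blue, with 95% Poisson intervals. Open triangles stand for 0 reads, drawn at the floor of 3. Old reads run from 245 to 1448 and young reads from 0 to 13.

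Among all 976 peaks, peak 3 ranked 9 by old reads and 4 by deposited fold. Peaks 2, 4 and 1 ranked 120, 166 and 291 by old reads, all above the list's median of 159.5. By deposited fold peak 4 ranked 30, peak 2 ranked 516 and peak 1 ranked 593. The order by fold puts the peaks with 0 young reads far ahead of the others. Summed over the gene, the 4 peaks held 2513 old reads and 23 young reads, and peak 3 alone gave 57.6% of the old reads. These sums describe the listed peaks and give no fold for the gene, since each peak was listed for its fold and neighbours may share reads. Sox5 ranked 8 of the 608 protein-coding genes with an old-list peak by summed old reads and 21 by number of peaks, a number it shared with 16 others.

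**Figure D4:**
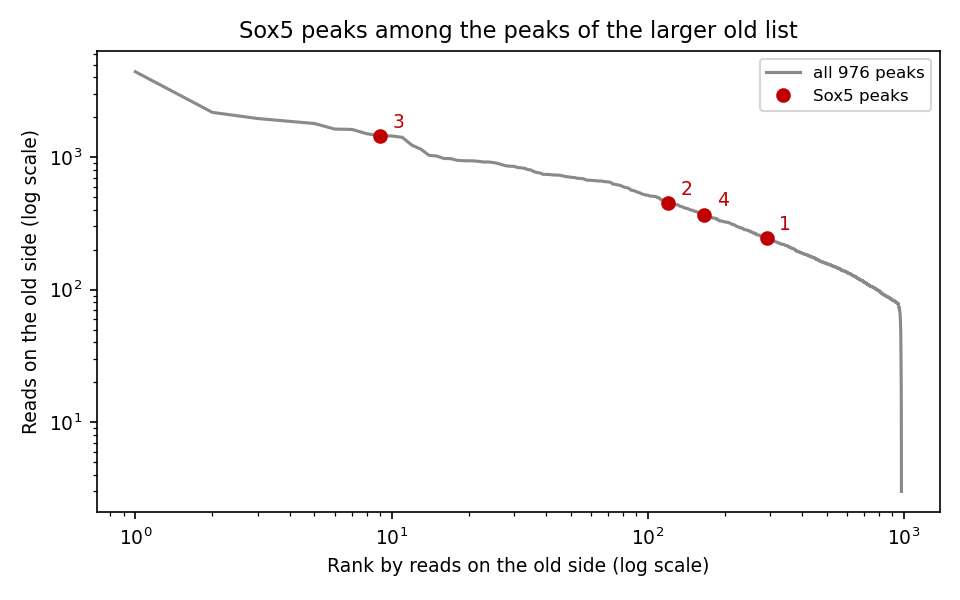
Old reads of the 976 peaks of the larger old list in order of rank, both axes on a log scale, with the 4 Sox5 peaks in red and numbered along the chromosome. Peak 3 stands at rank 9 and the other 3 between ranks 120 and 291.

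All 4 Sox5 peaks stood in the stricter old list with identical coordinates, which held for 182 of the 976 larger-list peaks (18.6%). Only Nfatc1, the calcium-responsive lymphocyte factor, held more peaks of the stricter list, and Stk3 held as many. When larger-list peaks with gaps of up to 5000 bp were joined, 26 runs of 4 or more peaks were found, holding 118 peaks (12.1%). In 2 of the 26 runs every peak also stood in the stricter list, the run in Sox5 and a run of 5 peaks in Nfatc1. By summed old reads, runs in Nfatc1, in Txndc11 with Snn, in Hvcn1 and in Tmigd3 with Adora3 stood ahead of it. No Sox5 peak had its centre in an exon, where 13.1% of the list did.

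No other listed peak lay close to Sox5. The next peak of the larger old list lay 1331295 bp outside the gene, past its upstream end, in Itpr2, which encodes an inositol trisphosphate receptor. The nearest peak of the larger young list on the chromosome lay 17716713 bp away, in Ntf3, a neurotrophin gene. Of the 5 protein-coding genes on each side of Sox5, 0 of 10 held a peak in any list. Over all protein-coding genes 2.77% held a peak of the larger old list and 1.38% one of the larger young list, so a count of 0 among 10 genes is near the background. Those nearest were Etnk1, an ethanolamine kinase gene, on one side and Bcat1, which encodes a branched-chain aminotransferase, on the other.

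In the SOX family of 20 genes, Sox5 was the single member with an old-list peak, where 2.77% of the 21951 protein-coding genes held one in the larger list and 0.729% in the stricter list. Sox6, its SoxD relative, held 1 peak of the larger young list, where 1.38% of genes did, and no SOX gene held one of the stricter young list, where 0.0501% did. That peak lay in an intron on chromosome 7 from 115684346 to 115684495, with 264 young reads against 5 old reads, 50.3-fold higher in young liver (21.3 to 156). The 2 genes thus stood in lists of opposite direction, a difference that was not tested. The third SoxD gene, Sox13, held 0 peaks, and so did Sox9. Length limits this comparison, because 12 of the 20 SOX genes are shorter than 5733 bp. That was the shortest of 563 host genes when 1 host was taken per peak of the larger old list. The shortest of all 608 genes holding such a peak was not computed. Sox5 itself is the 64th longest protein-coding gene.

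In the cartilage genes that SOX5, SOX6 and SOX9 act on or work with, 2 of 15 held a peak of the larger old list, against 2.77% of all protein-coding genes, and 0 held one of the larger young list, against 1.38%. With 15 genes, nothing particular to the list is read from these counts. Neither was a matrix gene such as Col2a1, the main cartilage collagen, or Acan, its large proteoglycan. Both were RUNX factor genes. Runx2, a regulator of bone and cartilage maturation, held 4 peaks with 1020, 937, 91 and 83 old reads against 0, 80, 4 and 0 young reads. Of these, 1 stood in the stricter list. Runx3, which acts in lymphocytes as well as in cartilage, held 1 peak with 131 reads against 4, a ratio of 34.4 (13.1 to 128).

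Likeness to Sox5 was measured as the sum, over the 4 lists, of the differences in the number of peaks held. By this measure Igf1r came first, with a difference of 1, followed by Tnfsf18 and Stk3, each with a difference of 2. Igf1r, the receptor of insulin-like growth factor 1, held 4 larger-list and 3 stricter-list old peaks within 2648 bp, all with 0 young reads and 120 to 385 old reads. They lay at 0.940 to 0.948 of the gene, near its end, where those of Sox5 lay near its start. Stk3, a kinase of the Hippo pathway, held 6 and 4 peaks spread over 32567 bp, with 81 to 1232 old reads. Tnfsf18, a ligand of the tumour necrosis factor family, held 4 and 2 peaks within 908 bp, with 87 to 919 old reads. In none of these 3 genes did a peak lie within a gene on the opposite strand, as all 4 peaks of Sox5 did. Of the 915 larger old-list peaks in protein-coding genes, 41 (4.48%) lay in such a gene, so its absence in these 3 is near the background. The Sox5 peaks share Sox5os3 and count as a single case.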

How the data were processed

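PRO-cap libraries of 4 old and 4 young liver samples were represented by 4 lists of 150 bp intervals. BWA 0.7.10, cutadapt 2.10, HOMER, SAMtools 1.1 and bedtools 2.27.1-65 are listed, with no roles, per the submitters' processing notes. The calling of peaks and of cryptic sites is not given in the sources used. In the larger lists the authors deposited 1 fold per peak, a ratio between the ages. In the stricter lists the deposited score is 0 throughout, so these gave positions only.

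All 976 old and all 425 young folds were equal to 1 plus a scaled whole read count, over the same for the other age, within 1e-07 reads and with up to 1000 reads tried on the other side, with 1 solution each. One read was worth 8.55 (old) and 8.15 (young) times the added constant. If both sides were scaled to 1 total, old depth was 0.953 times young depth, by which ratios were scaled. Total depth is unknown. On simulated folds, 100% of 976 old-like and 99.8% of 425 young-like values were solved correctly. These folds were made by the same formula, and the read value of the other side was given. The simulation therefore checks the algebra and not the form of the deposited folds. Ratios carry Clopper-Pearson intervals, read counts Poisson intervals, and 0 reads a floor of 3.

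Positions were read against GENCODE M21 (GRCm38, the assembly of mm10), 1-based, with Python 3.11.15 and SciPy 1.17.1. No test of age was made, since each age has 1 pooled list. The gene and all lists were chosen with earlier results of these data known. Named were all Sox5 peaks, genes holding them, members of fixed lists that held a peak, nearby genes and the 3 genes most like Sox5. Litaf, Asph, C130026I21Rik, Nfatc1, Itpr2, Ntf3 and the hosts of the larger runs of peaks were named after their values were seen. Genome sequence at the peaks was not analysed here.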

Additional observations from a re-analysis of the deposited data

How the results depend on the processing

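Counts of Sox5 peaks in the 4 lists were the same with any shared base and with the gene extended by 10000 bp. Those of the larger lists were the same with ratios whose lower bound is at least 10, and that of the larger old list with the RefSeq gene body, added after seeing the data. With the gene body of coding transcripts alone, 0 peaks of the larger old list and 0 of the stricter old list were left, because no coding transcript reaches the peaks. Joining within 5000 bp left 1 locus in place of 3, and joining only where peaks overlap left 4. The folds as deposited were 12388 for peak 3 and 3149 for peak 4, since there the added constant stands in place of a floor of 3 reads. With 1 peak per locus, summed old reads were 2061, because peak 2 was left out. Counted from starts of coding transcripts, peaks 1 to 4 were 344647, 343693, 343433 and 340627 bp from the nearest start, and from Sox5 starts 93723, 92769, 92509 and 89703 bp, since fewer starts were counted. In Sox5os3, added after seeing the data, relative positions were 0.731, 0.777, 0.789 and 0.923. Relative position in the longest coding transcript could not be given, since the peaks lie outside it. Sequence content, repeats, motifs and copies at the peaks were not run. No paired analysis was possible because each list is pooled, and for the same reason no replicate could be left out. The remaining alternatives, on scaling of reads, overlap, exons and the SOX family, gave the same values or values within counting error.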
